A study of Saccharomyces cerevisiae W303 with 24 samples.

Results

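The genes described here are 10 genes of purine nucleotide synthesis in budding yeast, *ADE1*, *ADE2*, *ADE4*, *ADE6*, *ADE8*, *ADE12*, *ADE13*, *ADE16*, *ADE17* and *AAH1*, out of 6176 nuclear open reading frames on the arrays. They were taken by name. The set was chosen by the measured intensity of *ADE1*, which was known to be near absent from the reference RNA, with the other genes as pathway members beside it. mRNA levels were measured on 24 dual-colour arrays, 1 array per strain, each with a strain RNA and a reference RNA labelled wild-type, after growth in rich medium (YEPD) at 30 °C. The strains were 12 disomes, haploid cells with an additional copy of a single chromosome (any but III, IV, VI and VII), and 12 disomes-*ubp6Δ*, which duplicate the same chromosomes and lack the gene of the deubiquitinating enzyme Ubp6.

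The study's strain list, which was drawn up for its mass spectrometry strains, gives all of them as haploid derivatives of the laboratory strain W303 of mating type a, with the *ade2-1* allele and further markers in *leu2*, *ura3*, *trp1*, *his3* and *can1*. In that list the wild-type strain carries *ade1::HIS3* and *lys2::KanMX6*. Disome I carries *ade1::HIS3* and *ade1::KanMX6* on its 2 copies of chromosome I, and disome XII carries *ade16::HIS3* and *ade16::KanMX6* on its 2 copies of chromosome XII. Disome II has both markers in *lys2*, disome V has HIS3 in *can1* and KanMX6 between genes, disome XV has both in *leu9* and disome XVI both in *met12*. The other disomes carry HIS3 and KanMX6 between genes, and the strains without Ubp6 carry *ubp6::CaURA3*. The list does not say that the array strains were the same isolates. Each strain was measured once, so the spread given below is that among strains with different extra chromosomes.

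Purine nucleotides are built stepwise on a ribose phosphate until inosine monophosphate is reached, from which separate branches lead to AMP and GMP. Cells can also take up adenine and other bases and salvage them. In yeast the genes of the pathway are activated together by the transcription factors Bas1 and Pho2, which also act on genes of one-carbon metabolism and histidine synthesis. Cells that lack Ade1 or Ade2 need adenine from the medium and accumulate a red pigment, which is why both genes are common strain markers.

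Ratios are given as log2 of strain over reference. The labels put the strain in Cy5 on all 24 arrays, but with the 12 disomes-*ubp6Δ* the duplicated chromosome was low in Cy5 (mean log2 Cy5 over Cy3 −0.98 to −0.59) and the authors' table of ratios ran opposite to Cy5 over Cy3 (r −0.999 to −0.990). The sign was therefore turned on those 12 arrays, against the label. With the sign so set, the duplicated chromosome had the highest mean of all chromosomes on 24 of 24 arrays, 0.68 to 0.99 without the *UBP6* deletion and 0.59 to 0.98 with it. The arrays lay on 4 slides: slide A held 8 disomes (I to XII), slide B held 3 (XIII to XV), slide C held disome XVI with 4 disomes-*ubp6Δ* (I to VIII), and slide D held the other 8. Genotype, dye orientation, reference RNA and most of the slide change together, so their parts in a difference between the genotypes cannot be told apart. Of the genes that mark α cells, *MF(ALPHA)1*, the main α-factor gene, had a strain intensity of 11.8 to 37.3 in disomes and, with *UBP6* deleted, 4.42 to 70.5. *MF(ALPHA)2* had 13.7 to 79.4 and 15.0 to 64.7, and *STE3* 17.0 to 169 and 19.0 to 121. *SAG1* was brighter, with 98.7 to 1009 and 343 to 817. The summed intensity of 4 α-cell genes was 232 to 1138 and 447 to 971 in the strains, and that of 4 a-cell genes 1239 to 49692 and 10019 to 41862.

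The marker gene *ADE1*, on chromosome I, encodes the enzyme that joins aspartate to the growing ring (SAICAR synthetase). It was the gene of the set with the widest gap between strain and reference. Leaving out disome I, the *ADE1* intensity of the strain RNA in the 11 disomes was 389 at the lowest, 826 at the median and 5704 at the highest, and that of the reference RNA 14.0, 21.6 and 54.4. In the 11 disomes-*ubp6Δ* the strain had 1547, 2342 and 4979.6, and the reference 6.04, 9.03 and 35.7. Strain and reference did not overlap in either genotype, which restates the low reference intensity by which the set was chosen. The marker *LYS2* did not overlap in the disomes-*ubp6Δ* either, with 1865 to 6735 in the strain and 250 to 612 in the reference. The share of all genes without overlap is not given.

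*ADE1* in the reference stood at the low end of the array. Its intensity lay at percentile 2.45 to 13.0 of all genes in the reference of the disome arrays and at percentile 0.02 to 9.28 in that of the *ubp6Δ* arrays. The same probe lay at percentile 34.0 to 79.8 and 61.0 to 80.2 in the strains. Both reference spots were well above background on 4 of 11 disome arrays (XIII, XIV, XV and XVI) and on 1 of 11 *ubp6Δ* arrays (VIII), and 1 spot was on disome XII and on disome II-*ubp6Δ*. On the other arrays, 6 and 9 in number, the reference gave only a limit. With the reference set, per array, to the higher of its own signal and the lowest signal of any probe well above background, *ADE1* was at least 23.0-fold higher in the disomes and at least 86.6-fold higher in the disomes-*ubp6Δ* (ratios of mean log2 values, n = 11 each). The limit for single arrays ran from 3.75-fold in disome XII to 172-fold in disome XIV, and from 45.7-fold in disome XIV-*ubp6Δ* to 189-fold in disome II-*ubp6Δ*.

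**Figure D1:**
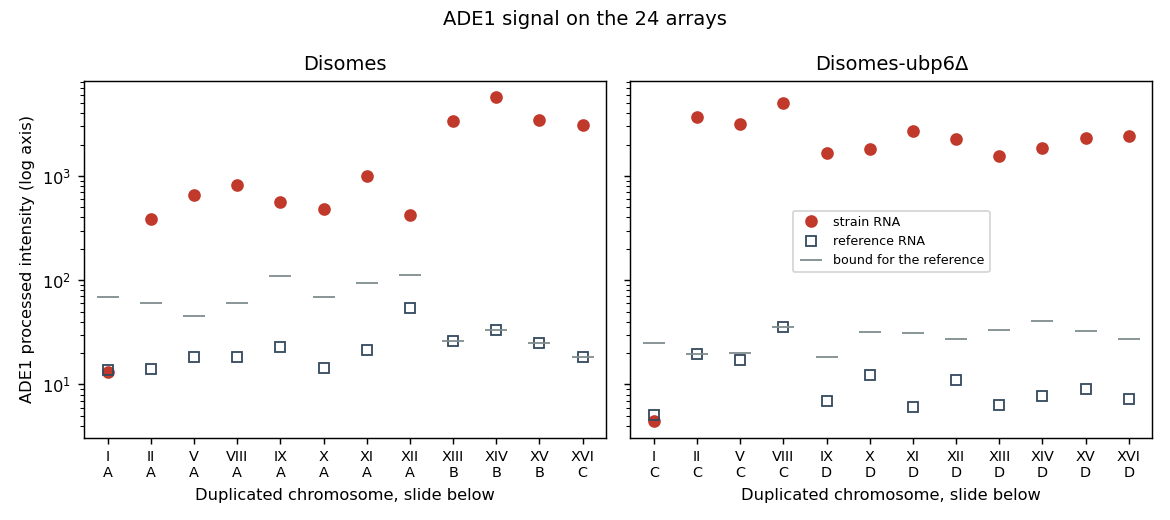
Processed *ADE1* intensity on a log axis, for the strain RNA (filled circles) and the reference RNA (open squares) on each of the 24 arrays, with the duplicated chromosome and the slide under each; the grey dash is the value used as the reference when limits were computed. Strain and reference are far apart on 22 arrays and both at the floor in disome I of both genotypes.

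Disome I was the exception in both genotypes. Its *ADE1* intensity was 13.2 in the strain and 13.6 in the reference, and in disome I-*ubp6Δ* 4.42 and 5.08. No spot of either RNA was well above background there, so no ratio was formed. The genes next to *ADE1* behaved otherwise. *BUD14*, a phosphatase regulator, had a log2 ratio of 1.09 in disome I and 0.84 in disome I-*ubp6Δ*, against means of 0.06 ± 0.14 (SD, n = 11) and −0.05 ± 0.17 (n = 11) in the other strains. *KIN3*, a protein kinase gene on the other side, had 1.18 and 0.62 against means of −0.03 ± 0.32 and −0.11 ± 0.42 (n = 11 each). The ratio of *ADE1* was thus found neither in its neighbours nor in disome I.

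The *ADE1* intensity of the strain RNA differed by slide. It was 389 to 1004 in the 7 disomes of slide A other than disome I, 3347 to 5704 in the 3 disomes of slide B and 3103 in disome XVI on slide C. The whole arrays differed in brightness as well. The median processed Cy5 signal, the dye of these strains, was 729 to 977 on slide A, 1927 to 2359 on slide B and 2088 for disome XVI. The part of this in the *ADE1* intensities was not tested. With *UBP6* deleted the *ADE1* intensity of the strain RNA was 3183 to 4979.6 on slide C and 1547 to 2704 on slide D. The median processed Cy3 signal, the dye of these strains, was 1074 to 1271 and 830 to 1053. The limit for the ratio was at least 3.75-fold to 14.6-fold on slide A, where the reference gave no spot well above background on 6 of 7 arrays and only 1 spot on the other. On slide C both reference spots were well above background in disome XVI, where *ADE1* was 171-fold higher in the strain, and in disome VIII-*ubp6Δ*, where it was 139-fold higher. No difference of *ADE1* between the genotypes was tested, since the reference was at its limit.

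The intensity of other members also differed between slides, in both RNAs together. The slides hold different strains, and the part of the slide itself was not tested. On slide A *ADE4* had a median strain intensity of 576 and reference intensity of 532, against 6836 and 5713 on slide B. *ADE12* had 287 and 282 on slide A against 3073 and 3459 on slide B, and *ADE16* 801 and 1037 against 7335 and 7948. *ADE8* ran the other way, with 29636 and 23169 on slide A and 4687 and 6592 on slide B. Differences between the genotypes were therefore tested only on ratios within an array, and intensities of different arrays are set side by side as a description.

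The other 9 members had mean log2 ratios between −0.64 (*AAH1* in the disomes-*ubp6Δ*) and 0.23 (*ADE4* in the disomes). As the members were drawn with these ratios known, the values against the reference are given without a test. In the fit across all genes, 3 of 10 members were past an adjusted p of 0.05 in the disomes, *ADE1* higher and *ADE16* and *AAH1* lower, where 39.4% of 5852 genes tested were, 14.8% higher and 24.6% lower (limma, Benjamini-Hochberg). For the disomes-*ubp6Δ* the count was also 3 of 10, *ADE1* higher and *AAH1* and *ADE12* lower, where 35.1% of 6005 genes were, 13.9% higher and 21.2% lower. Nothing is read from these counts. The median over the members was −0.01 and −0.06, beside −0.03 and −0.04 over all genes. All 10 members passed the filter on dim spots, *ADE1* through the strain RNA alone on most arrays.

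*ADE4* encodes the amidophosphoribosyltransferase that commits the sugar phosphate to the pathway. Leaving out the strain that duplicates it, its log2 ratio in the disomes was −0.04 at the lowest (disome X), 0.11 at the median and 1.40 at the highest (disome XI), with a mean of 0.23 ± 0.40 (SD, n = 11). In the disomes-*ubp6Δ* it was −0.39 (XIV), −0.09 and 0.53 (XI), with a mean of −0.01 ± 0.28 (n = 11). Disome XI was the highest in both genotypes, though in disome XI the intensities were low (244 in the strain, 92.3 in the reference) and only 1 of the 2 reference spots was well above background.

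*ADE8*, whose product adds the first formyl group, ranged in the disomes from −0.64 (XV) over a median of 0.22 to 0.92 (XI), and in the disomes-*ubp6Δ* from −0.59 (XIII) over −0.08 to 0.60 (XVI). *ADE6*, which encodes the enzyme that then brings in nitrogen from glutamine, ranged from −0.65 (XIII) over 0.01 to 0.44 (XI), and from −0.54 (XIII) over 0.03 to 0.40 (VIII). Both lie on chromosomes that no strain duplicated, IV and VII. They were below 0 in disomes XIII, XIV and XV of both genotypes, which are all of slide B among the disomes and lie on slide D among the disomes-*ubp6Δ*. The mean of *ADE6* was 0.12 on slide A and −0.47 on slide B, and that of *ADE8* 0.31 and −0.44.

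*ADE2*, which encodes the carboxylase just before Ade1 and carries the *ade2-1* allele in the strain list, was measured in every strain. It ranged from −1.10 (II) over 0.09 to 0.60 (XI) in the disomes, with a mean of 0.10 ± 0.46 (n = 11). The low value of disome II came from an intensity of 92.7 in the strain, with 1 of 2 strain spots well above background, and disome II-*ubp6Δ* had −0.17. With *UBP6* deleted the range was −0.49 (XVI) over −0.17 to 0.37 (XI), and the mean was −0.14 ± 0.27 (n = 11). As for *ADE4*, disome XI had the highest value of both genotypes apart from the strain that duplicates the gene.

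*ADE13*, whose product, adenylosuccinate lyase, acts both in the main pathway and in the AMP branch, stayed within −0.46 (XV) and 0.21 (XI) in the disomes and within −0.53 (XV) and 0.44 (VIII) in the disomes-*ubp6Δ*. Its means were −0.14 ± 0.21 and −0.05 ± 0.36 (n = 11 each). *ADE12*, which encodes adenylosuccinate synthase at the entry to the AMP branch, was −0.85 (XVI) at the lowest, −0.17 at the median and 0.32 (XI) at the highest in the disomes. In the disomes-*ubp6Δ* it was −1.04 (XIII), −0.50 and −0.02 (XII), below 0 in 11 of 11 strains.

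The last steps to inosine monophosphate are catalysed by the products of *ADE16* and *ADE17*, a pair of isozymes encoded on chromosomes XII and XIII. In the 11 disomes other than XII the ratio of *ADE16* was narrow, from −0.45 (X) over −0.24 to −0.04 (XV), below 0 in 11 of 11. With outlier spots kept, disome VIII was at 0.06. The disomes-*ubp6Δ* ran from −0.31 (XIII) over −0.19 to 0.39 (XVI). In disome XII *ADE16* had an intensity of 82.9 in the strain, with both spots well above background, and 1346 in the reference, 16.2-fold lower. In disome XII-*ubp6Δ* it had 28.9, with 1 of 2 strain spots well above background, and 3003, so the strain was near its floor and the processed ratio, 104-fold lower, is uncertain. The strain intensity of the other 11 strains was 517 to 7779 and 1877 to 5547, so disome XII stood below all others in both genotypes. *AAT2*, an aminotransferase gene next to *ADE16*, was at 0.61 and 0.87 in the same strains, above its means of −0.47 ± 0.27 and −0.06 ± 0.38 (n = 11 each). The other neighbour, *RPL15A*, has a near-identical copy elsewhere and was at 0.96 and −0.14.

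*ADE17* had the widest spread among strains of the 9 members other than *ADE1* (SD 0.56 and 0.86). The lowest ratio of the disomes was −1.20 (X), the median 0.12 and the highest 0.75 (IX) over 10 strains, and that of the disomes-*ubp6Δ* −1.19 (X), −0.14 and 1.94 (XI) over 11. In disome XI both *ADE17* spots carried an outlier flag and were left out. With outlier spots kept the ratio there was 2.07, so that disome X was the lowest and disome XI the highest in both genotypes. In disome XII, which carries markers in *ade16* in the strain list, *ADE17* was at 0.67, and at 0.29 in disome XII-*ubp6Δ*, both within the range of the other strains.

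*AAH1* encodes adenine deaminase, which turns adenine into hypoxanthine, and was the member with the lowest mean. Its ratio was −1.66 (XV) at the lowest, −0.47 at the median and 0.12 (X) at the highest in the disomes, with a mean of −0.59 ± 0.55 (n = 11). In the disomes-*ubp6Δ* the values were −1.51 (XIII), −0.55 and 0.12 (VIII), with a mean of −0.64 ± 0.47 (n = 11). It was below 0 in 10 of 11 strains of each genotype. The lowest strains were disomes XV and XIII in both, at −1.66 and −1.32 in the disomes and at −1.39 and −1.51 in the disomes-*ubp6Δ*. These disomes are the only ones of slide B that entered for *AAH1*, with a mean of −1.49 (n = 2) against −0.33 (n = 8) on slide A, and the part of the slide was not tested.

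**Figure D2:**
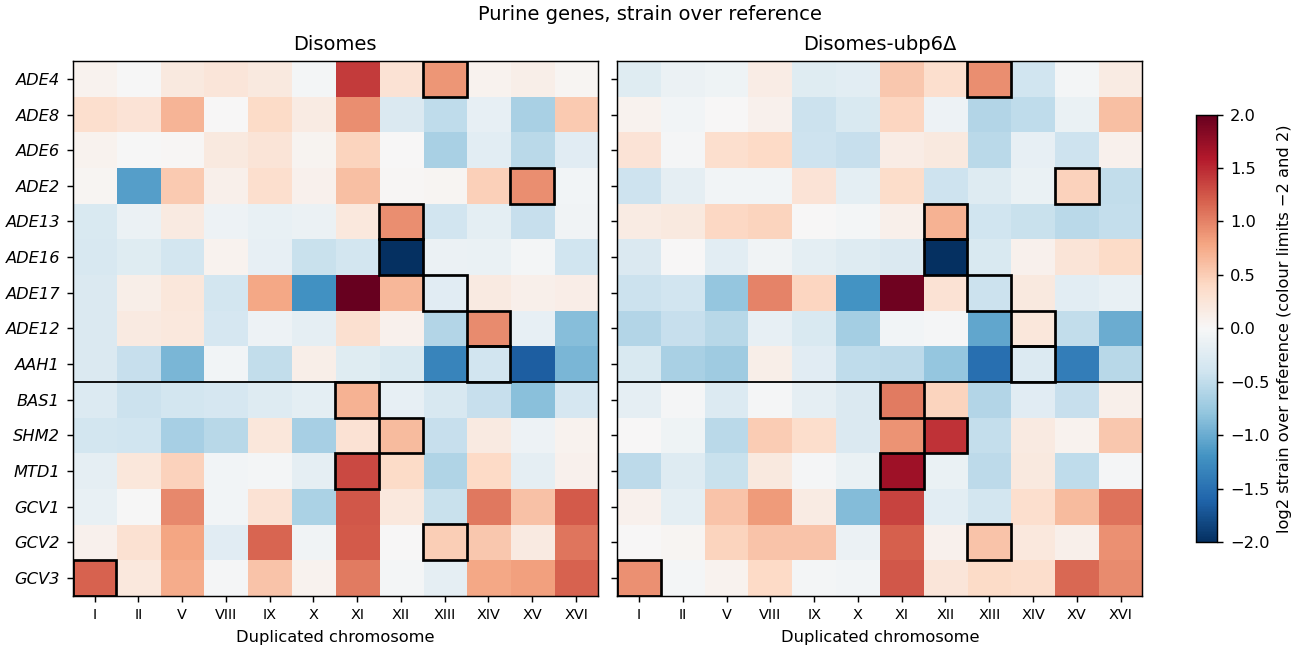
Log2 strain over reference of 9 members (above the line) and 6 other genes (*BAS1* and 5 one-carbon genes) in every strain of both genotypes, with outlier spots kept; black frames mark the strain that duplicates the gene's own chromosome, and *ADE1* is left out. The column of disome XI is mostly red, *ADE17* is darkest blue in disome X and darkest red in disome XI, and *ADE16* in disome XII lies beyond the colour limits.

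Disome XI had high values for many members, a pattern picked after the values were seen and so given without a test. It was not the only strain that stood apart. With outlier spots kept, 7 of the 9 members other than *ADE1* had their highest non-duplicated value in disome XI (*ADE2*, *ADE4*, *ADE6*, *ADE8*, *ADE12*, *ADE13* and *ADE17*), whereas 5.61% of 5370 genes did. Among the disomes-*ubp6Δ* it was 3 of 9 (*ADE2*, *ADE4* and *ADE17*), against 5.59% of 5657 genes. The median of the members was 0.44 in disome XI and 0.15 in disome XI-*ubp6Δ*, and that of all genes −0.02 and −0.05. Among the 35 other purine-related genes, *SHM2*, *GCV1* and *GCV2* were highest in disome XI in both genotypes, again with outlier spots kept. With outlier spots left out, *GCV2* was highest in disome IX among the disomes, at 1.16. The glycine cleavage genes *GCV1*, *GCV2* and *GCV3*, which supply one-carbon units, were at 1.23, 1.11 and 1.04 in disome XI and at 1.35, 1.20 and 1.24 in disome XI-*ubp6Δ*. *BAS1* lies on chromosome XI, and had 0.69 and 1.04 in these strains. In the other disomes *BAS1* was −0.83 to −0.16, and in the other disomes-*ubp6Δ* −0.59 to 0.44. The part of the *BAS1* copy in the values of the other genes was not tested.

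Of the members, 6 lie on a chromosome that some strain duplicates and keep an intact copy in the strain list, apart from the *ade2-1* allele. *ADE2*, on chromosome XV, was at 0.92 in disome XV and 0.46 in disome XV-*ubp6Δ*. *ADE12*, on XIV, was at 0.94 in disome XIV and 0.22 in disome XIV-*ubp6Δ*, and *ADE13*, on XII, at 0.95 in disome XII and 0.70 in disome XII-*ubp6Δ*. These 3 genes had their highest value of all strains of the genotype where they were duplicated. *ADE4*, on XIII, was at 0.89 in disome XIII, exceeded only by disome XI, and at 0.94 in disome XIII-*ubp6Δ*, the highest there.

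*ADE17* and *AAH1* did not show this. *ADE17* was at −0.23 in disome XIII and −0.43 in disome XIII-*ubp6Δ*, 0.35 and 0.28 below the median of the other strains. *AAH1* was at −0.38 in disome XIV and −0.28 in disome XIV-*ubp6Δ*, 0.09 and 0.28 above it. Counted over all duplicated genes, 76.4% of 4169 were highest in their own disome and 74.4% of 4372 in their own disome-*ubp6Δ*, and the median excess over the other strains was 0.90 and 0.91. The members' 3 of 6 and 4 of 6 stand beside those shares. The array of disome XIV-*ubp6Δ* had the lowest mean of a duplicated chromosome in that genotype, 0.59, and the part of this in the values of *ADE12* and *AAH1* was not tested.

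**Figure D3:**
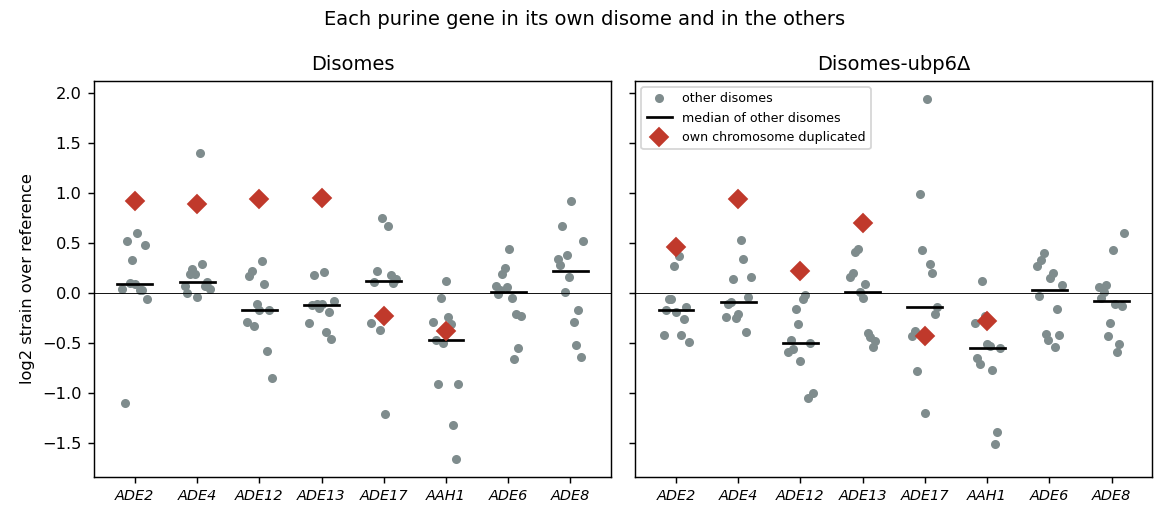
Log2 strain over reference of 8 members in the strain that duplicates the gene's chromosome (red diamonds) and in the other strains (grey points, black line at the median), for each genotype; *ADE1* and *ADE16* are left out, *ADE6* and *ADE8* were never duplicated, and the outlier spots of *ADE17* in disome XI are left out. The diamonds of *ADE2*, *ADE12* and *ADE13* are above all grey points, and those of *ADE17* and *AAH1* among them.

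Across the 12 duplicated chromosomes, agreement of the members' ratios between the genotypes varied, and for several members a few strains carried much of it. No such value over all genes is set beside it. The Pearson correlation of a member's ratio between the disomes and the disomes-*ubp6Δ* was 0.80 for *AAH1*, 0.73 for *ADE4*, 0.71 for *ADE12* and 0.61 for *ADE8* (Spearman's rho 0.69, 0.55, 0.63 and 0.62; n = 11, 11, 11 and 12 chromosomes). Without the 2 strains farthest from the median of the disomes it was 0.41, 0.27, 0.48 and 0.59. For *ADE13*, *ADE6* and *ADE2* r was 0.57, 0.50 and 0.42, and without the 2 farthest strains 0.47, 0.04 and 0.66. For *ADE17* r was 0.48 (rho 0.37, n = 10) and −0.18 without disomes X and IX. With outlier spots kept the r of *ADE17* was 0.77 (rho 0.53, n = 11) and 0.04 without disomes X and XI. *ADE16* had the lowest, 0.23. These are descriptions over strains that share a duplicated chromosome, a pathway and slides.

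With each genotype's mean taken off, the 36 pairs among the 9 members other than *ADE1* had a median Pearson r of 0.27, from −0.57 for *ADE13* with *ADE16* to 0.71 for *ADE6* with *ADE8*, over 19 to 24 arrays. With the mean of each genotype on each slide taken off as well, the median was 0.27 and the range −0.57 to 0.66. The median over all pairs of genes was 0.00 either way. Before the slide was taken off, the r of *ADE6* with *AAH1* was 0.68, that of *ADE6* with *ADE13* 0.66 and that of *ADE4* with *ADE17* 0.60. Of 5557 other genes compared over at least 20 arrays, those most like the mean of *ADE4*, *ADE6*, *ADE8*, *ADE13* and *ADE17* were *SER2* (r = 0.76), *ATR1* (0.76), *MCH5* (0.76), *HPT1* (0.75) and *MNR2* (0.72), over 22 to 24 arrays. *SER2* encodes a phosphatase of serine synthesis and *HPT1* the phosphoribosyltransferase that salvages hypoxanthine and guanine. No such ranking is given for *ADE1*, whose ratio has an undetected reference on 15 of 22 arrays.

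The genotypes were compared within pairs that duplicate the same chromosome. What is compared is the ratio of each strain to its own reference, and the reference RNA differed between the genotypes at least in *UBP6*. The reference intensity of *UBP6* was 1817 to 4462 on the disome arrays and 12.9 to 56.6 on the *ubp6Δ* arrays. Higher or lower between the genotypes therefore means a higher or lower ratio, not a level of the strain RNA alone. Of the 9 members tested, 2 had a lower ratio in the disomes-*ubp6Δ* and none a higher one. Of 5771 genes 34.2% passed, 16.2% higher and 18% lower. *ADE12* differed by −0.33 ± 0.09 (SE; 95% interval −0.53 to −0.14) and was lower in 10 of 11 pairs (limma, adjusted p = 0.00933). *ADE4* differed by −0.25 ± 0.09 (−0.44 to −0.05), lower in 9 of 11 pairs (limma, adjusted p = 0.0421). The call of *ADE4* was lost when any of 9 pairs was left out, that is all but XII and XVI (limma, adjusted p = 0.0529 to 0.0862, difference −0.26 to −0.19). On slide C, which holds both genotypes, *ADE12* was at −0.85 in disome XVI and at −0.44 ± 0.19 (SD, n = 4) in the disomes-*ubp6Δ*, the opposite order to that of the pairs. The call of *ADE12* was also lost with the slide as a random block or without pairing. The fit with the slide as a fixed block rests on these arrays, 1 disome against 4, and gave 0.41 (limma, adjusted p = 0.639).

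The other 7 members did not pass. *ADE2* differed by −0.24 (95% interval −0.51 to 0.03), *ADE8* by −0.22 (−0.45 to 0.02), *ADE17* by −0.15 (−0.54 to 0.23) and *AAH1* by −0.04 (−0.26 to 0.18). For *ADE6* the difference was 0.00 (−0.20 to 0.21), for *ADE13* 0.08 (−0.12 to 0.29) and for *ADE16* 0.18 (−0.00 to 0.36). The limma adjusted p was between 0.106 for *ADE16* and 0.975 for *ADE6*. *ADE2* passed, in the same direction, with another background correction, with spots well above background in both dyes required, and with the authors' table. Single pairs also decided some of these results. Without pair II the difference of *ADE2* was −0.36 (adjusted p = 0.00446, limma), without pair XV that of *ADE8* was −0.28 (adjusted p = 0.0381, limma), and without pair VIII that of *ADE17* was −0.32 (adjusted p = 0.0399, limma).

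**Figure D4:**
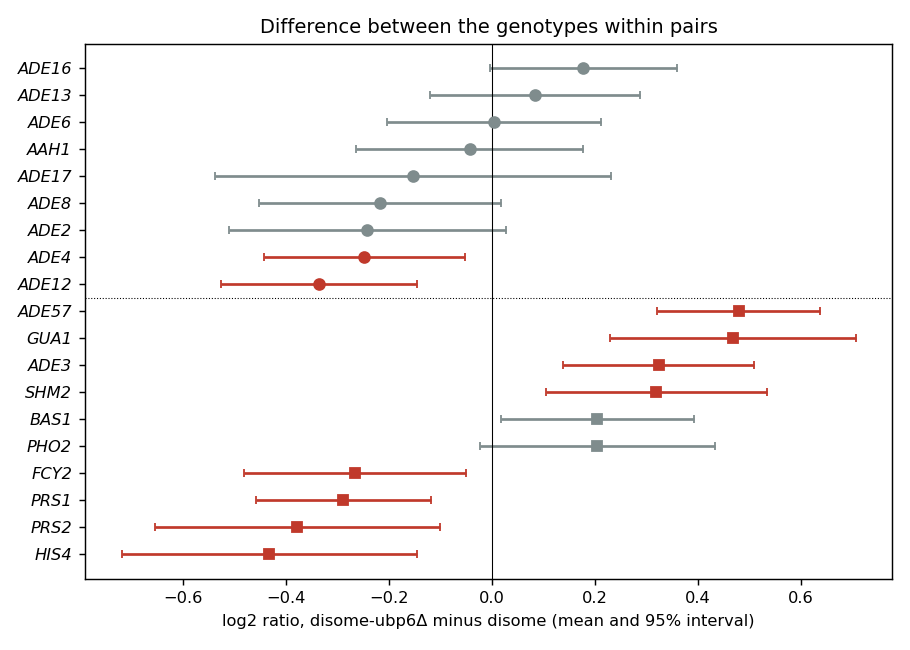
Mean difference of the log2 ratio, disome-*ubp6Δ* minus disome within pairs of the same duplicated chromosome, with its 95% interval, for 9 members (circles) and 10 other purine-related genes (squares); red marks an adjusted p under 0.05. *ADE4* and *ADE12* lie below 0, and *ADE57*, *GUA1*, *ADE3* and *SHM2* above it.

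A pair of further genes of the main pathway had higher ratios in the disomes-*ubp6Δ* than in the paired disomes. *ADE5,7* (*ADE57* in the annotation) encodes a bifunctional enzyme that acts after Ade4 and after Ade6, and *ADE3* the enzyme that supplies its formyl groups. *ADE57* was −1.19 (XVI), −0.29 and 0.06 (XIV) in the disomes and −0.49 (XV), 0.05 and 0.67 (VIII) in the disomes-*ubp6Δ*. It was lower than the reference in the disomes (mean −0.38, limma adjusted p = 0.00787, below 0 in 10 of 12). With the slide as a random block the limma adjusted p of that mean was 0.0721. The ratio of *ADE57* was higher in the disomes-*ubp6Δ* than in their pairs in 12 of 12, by 0.48 ± 0.07 (SE, limma adjusted p = 0.000314). *ADE3* was lower in the disomes (mean −0.28, adjusted p = 0.0389, limma) and differed by 0.32 between the genotypes, higher in 10 of 11 pairs (limma, adjusted p = 0.00958). The call of *ADE3* against the reference was lost without any of 8 disomes (I, II, VIII, X, XI, XII, XIII or XV; limma, adjusted p = 0.0508 to 0.0752, mean −0.30 to −0.26).

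The regulators differed from each other. *BAS1* was lower in the disomes, in 11 of 11 (mean −0.36, adjusted p = 0.000801, limma), and had a mean of −0.16 in the disomes-*ubp6Δ* (adjusted p = 0.167, limma), where 2 of 11 strains were above 0. Their difference was 0.21 (adjusted p = 0.0726, limma). Without disome XII-*ubp6Δ* the mean of *BAS1* in the disomes-*ubp6Δ* was −0.22 (adjusted p = 0.0348, limma), and without pair XIII the difference was 0.25 (adjusted p = 0.0247, limma). *PHO2* had means of −0.07 and 0.14 and a difference of 0.20 (adjusted p = 0.137, limma), which was 0.28 without pair XVI (adjusted p = 0.03, limma).

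In all, 12 of the 35 other purine-related genes passed in the disomes, 2 higher and 10 lower, with a median of −0.09, where 39.4% of all genes passed. For the disomes-*ubp6Δ* 11 passed, 2 higher and 9 lower, with a median of −0.09, where 35.1% of all genes did. Between the genotypes 4 were higher and 4 lower, where 34.2% of all genes passed. With the slide as a random block 3, 1 and 3 of these calls remained, those of *BAS1*, *MEU1* and *GUA1* in the disomes, *MEU1* in the disomes-*ubp6Δ*, and *ADE57*, *ADE3* and *GUA1* between the genotypes. Every other call on the 35 genes was lost with that block.

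The calls upward against the reference were those of *GCV3* and *GCV2*, in both genotypes, and none held with the slide as a random block (limma, adjusted p = 0.136 to 0.21). *GCV3* had a mean of 0.47 in the disomes (adjusted p = 0.0121, limma) and 0.42 in the disomes-*ubp6Δ* (adjusted p = 0.0228, limma), and *GCV2* 0.45 and 0.37 (adjusted p = 0.0216 and 0.0257, limma). The call of *GCV2* was lost without disome XI (0.38, adjusted p = 0.0501, limma) and, in the disomes-*ubp6Δ*, without VIII or XVI (0.31 to 0.35, adjusted p up to 0.0568, limma), and that of *GCV3* without disome XVI-*ubp6Δ* (0.37, adjusted p = 0.0509, limma). Of the 7 one-carbon genes, *SHM1*, a serine hydroxymethyltransferase of mitochondria, was lower in the disomes (−0.31, adjusted p = 0.0416, limma), a call lost without any of 8 strains (I, V, VIII, IX, X, XI, XIII or XIV; mean −0.31 to −0.27). *MIS1*, the mitochondrial counterpart of *ADE3*, was lower in the disomes-*ubp6Δ* (−0.25, adjusted p = 0.03, limma), a call lost without V, X, XI, XIII or XIV (−0.23 to −0.22). *SHM2*, the cytosolic form, differed by 0.32 between the genotypes, higher in 10 of 11 pairs (limma, adjusted p = 0.0209).

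Genes of uptake and salvage that passed were lower. *MEU1*, which acts in the salvage of methylthioadenosine, had −0.54 in the disomes (adjusted p = 0.000322, limma) and −0.46 in the disomes-*ubp6Δ* (adjusted p = 0.000388, limma), and passed under every alternative run. *ISN1*, an IMP nucleotidase, had −0.20 and −0.19 (adjusted p = 0.0225 and 0.0184, limma), lost in the disomes without X or XI (−0.19 to −0.18). *APT1*, adenine phosphoribosyltransferase, was lower in the disomes (−0.24, adjusted p = 0.00563, limma). In the disomes-*ubp6Δ* *FCY2*, the purine and cytosine permease, had −0.36 (adjusted p = 0.0133, limma), *HPT1* −0.24 (adjusted p = 0.028, limma) and *GUD1*, guanine deaminase, −0.34 (adjusted p = 0.0438, limma). The call of *HPT1* was lost without II, X, XIII, XIV or XVI (−0.23 to −0.20) and that of *GUD1* without any of 9 strains (I, II, V, VIII, X, XI, XIII, XIV or XVI; −0.37 to −0.27). The ratio of *FCY2* was lower than in the paired disome (difference −0.27, adjusted p = 0.047, limma), a call lost without any pair but XIV or XVI (−0.28 to −0.22).

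In the GMP branch *GUA1*, GMP synthase, was lower in the disomes, in 8 of 8 measured (−0.55, adjusted p = 0.000456, limma). Its ratio was higher in the disomes-*ubp6Δ* than in their pairs, in 8 of 8 (0.47, adjusted p = 0.00543, limma). Among the synthases of the ribose donor PRPP, *PRS5* was lower in the disomes (−0.38, adjusted p = 0.0219, limma; −0.33 without disome IX, adjusted p = 0.0506). *PRS4* and *PRS1* were lower in the disomes-*ubp6Δ* (−0.31 and −0.24, adjusted p = 0.0128 and 0.00802, limma). The ratios of *PRS1* and *PRS2* were lower than in the paired disomes, by differences of −0.29 and −0.38 (adjusted p = 0.0114 and 0.0311, limma). The call of *PRS2* was lost without pair I, II, VIII, IX, X, XI or XIV (−0.38 to −0.33). Of the histidine genes under Bas1, *HIS1* was lower in both genotypes (−0.48 and −0.48, adjusted p = 0.0166 and 0.0181, limma) and *HIS4* differed between them by −0.43 (adjusted p = 0.0203, limma). With the slide as a random block the differences of *PRS1*, *PRS2* and *HIS4* had adjusted p of 0.103, 0.127 and 0.193 (limma), and those of *FCY2* and *SHM2* 0.276 and 0.135.

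The other strain markers were read beside *ADE1*. *LYS2*, of lysine synthesis, had a log2 ratio of 2.21 to 3.26 in the 11 disomes that do not duplicate chromosome II and of 2.57 to 3.69 in the 11 disomes-*ubp6Δ*, above 0 in every one. Its intensity in the reference was 42.0 to 557 and 250.02 to 612. On the 8 arrays of slide A it was 42.0 to 132, and the low end lay within the range of *ADE1* in the reference of the disome arrays (14.0 to 54.4). In disome II and disome II-*ubp6Δ*, which carry both markers in *lys2* in the strain list, *LYS2* was at 0.91 and 0.71. *UBP6* had an intensity of 24.2 to 265 in the strains and 12.9 to 56.6 in the reference of the *ubp6Δ* arrays, beside 1215 to 3920 and 1817 to 4462 on the disome arrays, so the reference of the *ubp6Δ* arrays also had little *UBP6* signal, whatever its label.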

How the data were processed

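RNA of 12 disomes and 12 disomes-*ubp6Δ*, 1 array per strain, was hybridized by the authors with a reference RNA to dual-colour arrays of 60mer probes and read with Feature Extraction 10.7.1.1. The deposited intensity values comprise raw spot and background medians as well as signals after background subtraction and dye normalization, here called processed. The ratio column deposited with them is log10 of Cy5 over Cy3. The deposited table of the authors holds per-array values that follow these ratios on the log2 scale, turned to strain over reference. Deposited flags, read as a score of 0 or 1, mark outlier spots and spots well above background.

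Log2 of Cy5 over Cy3 was formed from the processed signals of each spot, and its sign was turned on the *ubp6Δ* arrays. Control and outlier spots were left out, as were spots not well above background in at least 1 dye, and the rest were averaged per gene. Each of the 10 members had 1 probe of 2 spots. Names came from the RefSeq annotation by locus tag for 5718 of 6176 open reading frames. Between 5288 and 6132 genes were measured per array, and the number of arrays limits the precision. Single-gene tests used limma 3.58.1 (R 4.3.3), the mean against 0 within a genotype or of differences within pairs, without the strain that duplicates the gene, with at least 6 strains or pairs and Benjamini-Hochberg adjustment over all genes. Intervals of differences use the moderated SE and the t distribution over strains. Summaries and figures were made in Python 3.

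Pairs share a duplicated chromosome by label. The deviations of the same disome from its genotype's mean correlated between genotypes at −0.05 to 0.64 (median 0.32), above 0.1 in 11 of 12. The labels do not say whether strains or their repeats were separate cultures.

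The members and lists were chosen with earlier results of these data known. Named were the 10 members, each gene of 35 related ones that passed a test, *ADE3*, *ADE57*, *BAS1*, *PHO2*, the markers *LYS2* and *UBP6*, and the 5 genes most like the mean of 5 members. The rule also took the 5 most like *ADE1*, which are not given because its reference was mostly undetected. *GCV1*, *BUD14*, *KIN3*, *AAT2* and *RPL15A* were added after values were seen. The fits were first tested on simulated data with known changes. Alternatives were another background correction, other filters, centring, the authors' table, slide blocks and leaving out each strain. No sequences or coordinates are given, since none were at hand in the build of the arrays.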

Additional observations from a re-analysis of the deposited data

Results flagged for a closer look

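The genotypes differed within pairs, past an adjusted p of 0.05 (limma, over all genes), for 2 members, *ADE4* (−0.25 on the log2 scale, adjusted p = 0.0421) and *ADE12* (−0.33, adjusted p = 0.00933). The same held for 8 of the related genes: *ADE57* (0.48), *GUA1* (0.47), *ADE3* (0.32), *SHM2* (0.32), *FCY2* (−0.27), *PRS1* (−0.29), *PRS2* (−0.38) and *HIS4* (−0.43), with the adjusted p of each given above. Of the strain markers, *LYS2* differed by 0.52 (adjusted p = 0.011, limma) and *UBP6* by 1.91 (adjusted p = 7.47e-05, limma), the latter with little signal in either RNA of the *ubp6Δ* arrays. Reference RNA, dye orientation and most slides change with the genotype and cannot be told apart from it.

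The difference of *ADE17* within pair VIII was 1.36, far from the next of 10 pairs, which was 0.02. Without that pair the mean difference was −0.32. It was marked among 14 groups of 10 or fewer values that were checked. Such a gap would be marked by chance in about 1 of 20 groups.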

How the results depend on the processing

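Pairing, slide and the duplicated chromosome moved the counts most, and the cause was not tested. The 2303, 2106 and 1974 genes past the test (disomes, disomes-*ubp6Δ*, pair difference) were 334, 579 and 737 with the slide as a random block, and of the 12, 11 and 8 other purine-related genes 3, 1 and 3 passed. With values on the duplicated chromosome kept, 1528 and 1366 genes passed against the reference, and 4 and 3 of the related ones. Without pairing, 1458 genes passed between the genotypes, and 4 related ones. With the slide as a fixed block and no pairing, chosen after seeing the data, the contrast rests on slide C alone, with 1 disome against 4 disomes-*ubp6Δ*. There 90 and 2 passed, and the value of that lone disome gave the opposite sign for *ADE12* (0.41), *PRS1* (0.10), *PRS2* (0.32), *FCY2* (1.05), *SHM2* (−0.095) and *HIS4* (0.12). On the slide with most arrays of the genotype alone the sign turned, past the test, for *IMD2* (0.45) and *FCY2* (0.19) in the disomes and *PRS5* (−0.31) and *SHM1* (−0.33) in the disomes-*ubp6Δ*. The pair difference was not run there, with only 4 pairs. Leaving out each strain gave 1936 to 2497, 1850 to 2177 and 1629 to 2072 genes, and 8 to 13, 7 to 13 and 6 to 10 related ones. Centring on non-duplicated genes moved the share of higher calls from 37.5% to 49.5% in the disomes and from 39.5% to 53.2% in the disomes-*ubp6Δ*. A member was highest in its own disome in 7 of 12 cases (6 members, both genotypes), and in 7 to 8 under the alternatives. *ADE4* lost its call under 16 of 22 alternatives. The mean log2 ratio of *ADE1*, 5.69 and 7.82, was 3.28 and 5.54 with normexp and an offset of 50, all against a reference mostly not above background. Dim reference spots limit *ADE1*, and dim spots on slide A limit *ADE2*, *ADE4* and *ADE12*.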
